A study of Mus musculus with 6 samples.

Results

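Type I interferon-stimulated genes are genes whose transcription rises when a cell senses type I interferon. A list of 47 of them was matched by gene symbol to the 23282 rows of liver RNA counts from mice on a high-fat diet, and all 47 had a row. The GTPases of the Gbp and Irg families were left out by that list, with the exception of Ifi47, which is itself an Irg-family gene. Of the 47 genes, 46 had enough counts to be tested, and Oas3 did not, at 0.258 to 0.889 CPM (counts scaled to a common library total) over the 6 libraries.

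All animals were male C57BL/6N mice (C57BL/6 in the sample labels) that started a high-fat diet at 8 weeks of age and ate it for 12 weeks. After the first 8 of those weeks, 1 group was dosed by mouth with atractylodin, a polyacetylene of Atractylodes rhizomes, at 10 mg/kg body weight on 5 days per week for 4 weeks. The other group was dosed with vehicle, and there was no group on a control diet. Liver RNA was sequenced with QuantSeq, which reads the 3' end of transcripts, in 3 libraries per group. The libraries are numbered but not stated to come from separate animals, so the p-values measure only the spread between these libraries.

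Type I interferons bind the receptor chains IFNAR1 and IFNAR2 and activate the kinases JAK1 and TYK2. These phosphorylate STAT proteins, among them STAT2, which with IRF9 is part of a complex called ISGF3 that binds the interferon-stimulated response element (ISRE) in the promoters of target genes. The products bind or cut viral RNA, block viral entry and assembly, tag proteins with ISG15, and include sensors and transcription factors of the pathway itself. In liver, hepatocytes, Kupffer cells and sinusoidal endothelial cells can all respond to type I interferon.

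The core of the element that ISGF3 recognises was present in the promoters of 6 of 16 genes whose level fell. It was also present in 9 of 20 tested genes whose change did not pass. A search took 250 bases before to 50 bases after each annotated start (RefSeq, build GRCm38.p6) and looked on both strands for the ISRE core, spelled GAAA, any 2 bases, then GAAA. The promoter of Isg15 is shown whole up to the start (chr4:156200819-156201068, minus strand), since Isg15 had the smallest p of the 46 tested genes. It held 3 overlapping matches covering 22 bases, the first of them 78 bases before the start. Capitals mark the matches in every sequence printed here, and a match on the opposite strand reads TTTC, 2 bases, TTTC.
Isg15: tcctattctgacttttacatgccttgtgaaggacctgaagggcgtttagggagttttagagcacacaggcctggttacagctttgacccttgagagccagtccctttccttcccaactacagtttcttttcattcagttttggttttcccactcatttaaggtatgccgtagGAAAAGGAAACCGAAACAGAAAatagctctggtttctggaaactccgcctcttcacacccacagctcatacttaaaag

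The other 5 promoters with a match among the genes that fell are shown as short windows around it. They were Ifit1 (chr19:34640775-34640823, plus strand), Ifit3 with matches at chr19:34583363-34583392 and chr19:34583397-34583426 (plus strand), Ifitm3 (chr7:141010715-141010743, minus strand), Ifih1 (chr2:62646206-62646233, minus strand) and Cxcl10 (chr5:92349083-92349112, minus strand). The match began 104 bases before the start in Ifit1, 156 and 122 bases before it in Ifit3, and 213 bases before it in Cxcl10. In Ifitm3 and Ifih1 it lay just after the start, 3 and 33 bases into the transcript.
Ifit1: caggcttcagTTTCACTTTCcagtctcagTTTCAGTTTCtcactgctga
Ifit3, first match: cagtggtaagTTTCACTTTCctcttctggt
Ifit3, second match: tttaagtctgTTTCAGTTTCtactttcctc
Ifitm3: gGAAAAGGAAActtctgaGAAACCGAAAc
Ifih1: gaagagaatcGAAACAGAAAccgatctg
Cxcl10: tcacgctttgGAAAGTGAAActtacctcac

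Genes whose change did not pass the test carried the same letters. Not passing does not mean unchanged: all 15 tested genes with the core had estimates below 0, at log2 -2.14 to -0.19. Stat2 (chr10:128270266-128270295, plus strand), Rsad2 (chr12:26456553-26456582, minus strand) and Oas1a (chr5:120907523-120907552, minus strand) are shown here. The window of Oas1g (chr5:120887609-120887638, minus strand) was identical, base for base, to that of Oas1a.
Stat2: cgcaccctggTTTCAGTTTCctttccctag
Rsad2: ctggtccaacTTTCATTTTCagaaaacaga
Oas1a: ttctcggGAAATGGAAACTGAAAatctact
Oas1g: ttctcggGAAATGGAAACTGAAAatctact

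A promoter was at hand for 37 of the 47 genes, and 16 of the 37 (43.2%) held an ISRE core, against 3.99% of 27025 genes in the table. The 16 were Isg15, Ifit1, Ifit3, Ifitm3, Ifih1, Cxcl10, Stat2, Rsad2, Oas1a, Oas1g, Oas3, Bst2, Ddx58, Ddx60, Eif2ak2 and Trim30a. The GAS element, TTCNNNGAA, a site of STAT binding, was in 8 of the 37 (21.6%) against 9.55% of all genes. The ISRE core was in 6 of 16 genes that fell (37.5%) and in 9 of 20 tested genes that did not pass (45.0%). Tested genes with the core had a median log2 fold change of -0.61 (15 genes) and those without it -0.71 (21 genes). The match is a description of these letters in this window only. The genes without a promoter at hand were Usp18, Oas2, Mx1, Mx2, Dhx58, Zbp1, Parp9, Parp14, Ifi27 and Rtp4.

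Of the 6 libraries vehicle 1 was the shallowest, with 1831461 counts against 9871762 to 12565393 in the others. A count of 3, taken as the floor, equalled 1.64 CPM in vehicle 1 and 0.239 to 0.304 CPM in the others, so genes of a few CPM were measured least precisely in that library. No library had a count of 0 for any of the 46 tested genes. CPM values here are counts scaled to a common effective library size by the TMM method of edgeR.

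Livers of atractylodin-treated mice had lower levels of many interferon-stimulated genes and a higher level of none. Of the 46 tested genes 17 fell (37%), 0 rose and 29 did not pass an adjusted p of 0.05 in edgeR's quasi-likelihood test, adjusted over 12505 rows. Over all tested rows 3.33% fell and 3.92% rose. The falls ran from 1.6-fold (Adar) to 4.39-fold (Cxcl10), and 9 of the 17 were at least 2-fold. The median log2 fold change of the 46 genes was -0.64, from -2.14 to 0.19, where the median of all tested rows was 0. Estimates were below 0 for 43 of the 46 genes (93.5%), where 50.2% of all tested rows had such an estimate. The vehicle and atractylodin libraries did not overlap, with atractylodin lower, for 27 of the 46 genes (58.7%), against 12.6% of all tested rows. An unadjusted p under 0.05 was found for 28 (60.9%), each with a lower estimate, against 21.5% of all tested rows in either direction. DESeq2 also called 17 lower, of 44 tested, and limma-voom 17 of 46, with 0 higher in both. Of the 17 edgeR calls 16 were kept in DESeq2 and 15 in limma-voom. Over all rows these tools called 3.05% and 3.09% lower.

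The 43 lower estimates were also below 0 under RLE and total counts scaling, and total counts scaling put Trim25 and Ifi35 below 0 as well. That scaling moved the balance over all rows from 490 higher and 416 lower to 312 higher and 707 lower, and called 19 of the 46 genes lower. The count of genes that fell was 10 without vehicle 1, 9 without vehicle 2, and 12 to 16 without any 1 of the other libraries. The share of all rows called lower dropped as well, from 3.33% to 1.67% without vehicle 1 and 2.29% without vehicle 2. It was 1.8% to 2.82% without any 1 of the other libraries. With every library thinned to the count total of vehicle 1, 9 of 35 tested genes of the list fell, and 2.76% of all tested rows. Thinning was a random draw that was not repeated, so calls lost or gained after it could differ in another draw.

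**Figure D1:**
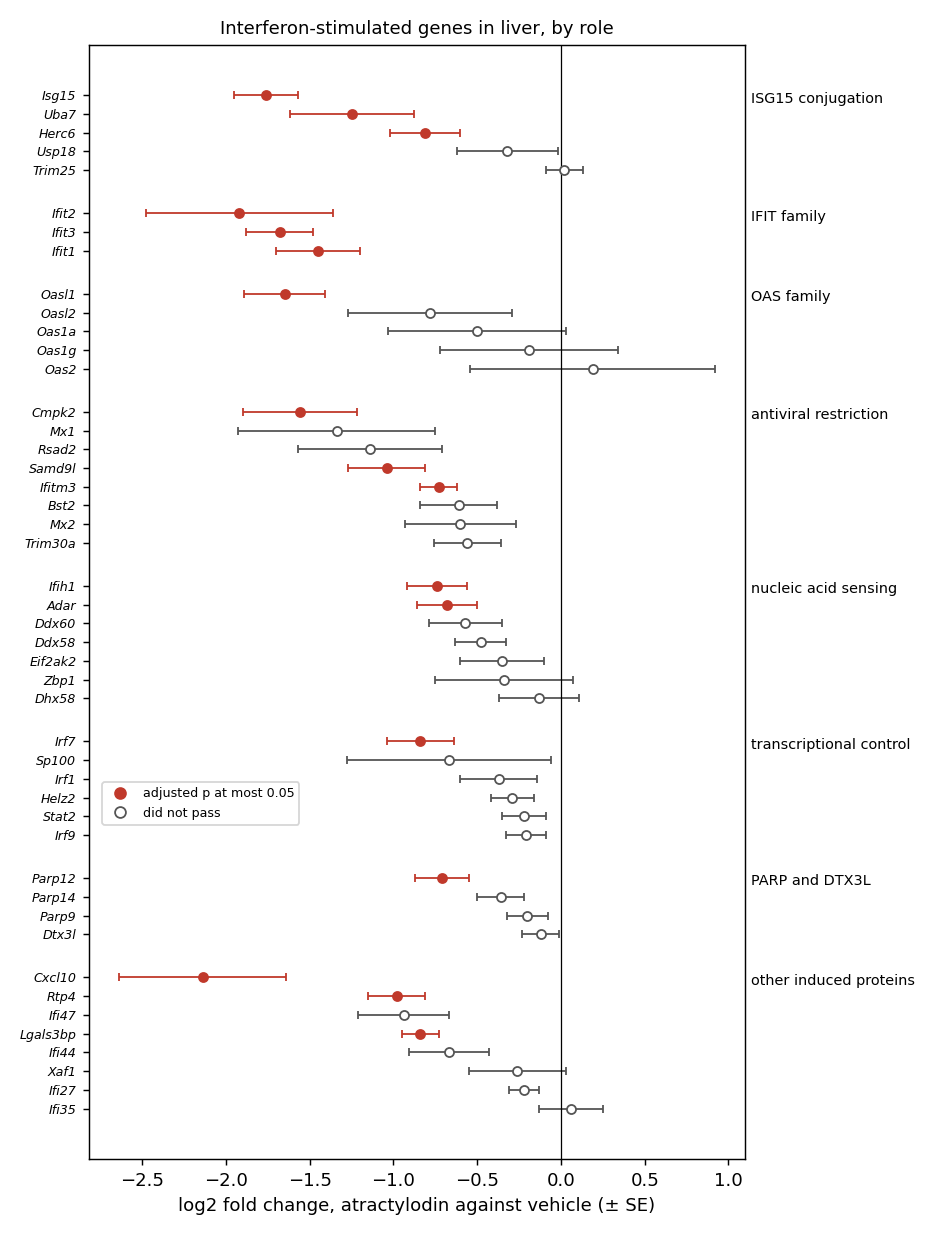
Log2 fold change of each of the 46 tested interferon-stimulated genes, atractylodin against vehicle (x axis, log2 units, 0 marking no difference), grouped by role, with bars of 1 SE. Filled points are the 17 genes that passed an adjusted p of 0.05, and 43 of the 46 points lie left of 0.

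Isg15 and the genes of enzymes that act with it changed unevenly. Isg15, Uba7 and Herc6 fell, Usp18 and Trim25 did not pass, and the median log2 fold change of the 5 was -0.81. Isg15 encodes the ubiquitin-like modifier itself (chromosome 4, 156199424 to 156200818, minus strand). It stood at 21.5, 17.1 and 19.2 CPM in vehicle 1 to 3 and at 5.58, 5.85 and 5.34 CPM in atractylodin 1 to 3. The groups lay far apart, with the lowest vehicle library well above the highest atractylodin library. Its log2 fold change was -1.76 ± 0.19 (SE), a 3.38-fold lower level (adjusted p = 3.31e-05).

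Uba7, the enzyme that activates ISG15, had 7, 5.07 and 6.39 CPM with vehicle and 2.49, 1.15 and 3.76 CPM with atractylodin. It fell 2.38-fold (log2 -1.25 ± 0.37, adjusted p = 0.0476), a call lost without any 1 of vehicle 1, 2 or 3 or atractylodin 1 or 2 (adjusted p = 0.0715 to 0.187). It was also lost in limma-voom (adjusted p = 0.0591) and after thinning (adjusted p = 0.147). Herc6, the mouse ligase for ISG15, had 13.5, 11.8 and 11.8 CPM against 7.67, 5.53 and 7.52 CPM. It fell 1.75-fold (log2 -0.81 ± 0.21, adjusted p = 0.0267), a call lost without any 1 of the vehicle libraries or atractylodin 2 (adjusted p = 0.0696 to 0.0930), and also after thinning (adjusted p = 0.417). Both genes had the groups apart, with atractylodin 2 the lowest library.

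Usp18, which removes ISG15 and restrains the interferon receptor, had 13.5, 15.4 and 5.98 CPM with vehicle and 8.87, 8.98 and 8.94 CPM with atractylodin. Its vehicle libraries spanned the atractylodin ones, and it did not pass (log2 -0.32 ± 0.30, adjusted p = 0.585). Trim25, a ubiquitin ligase that acts on RIG-I, was the most abundant of these genes. It had 106, 107 and 88.4 CPM with vehicle and 117, 92.4 and 94.3 CPM with atractylodin, and the groups overlapped (log2 0.02 ± 0.11, adjusted p = 0.951).

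The IFIT genes, whose products include proteins that bind viral RNA lacking the cap methylation of host mRNA, all fell. These 3 genes are neighbours on chromosome 19, between 34550694 and 34650009, and their median log2 fold change was -1.68. Ifit3 had 26.4, 26.4 and 23.3 CPM with vehicle and 10.2, 5.33 and 8.02 CPM with atractylodin. It fell 3.21-fold (log2 -1.68 ± 0.20, adjusted p = 0.000104). Its paralog Ifit3b shared 1 of the 251 stretches of 50 bases in the last 300 bases of the longest coding Ifit3 transcript. Only exact matches were counted, so reads that could fit both with mismatches are not covered.

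Ifit1 had 13.5, 16.8 and 11.9 CPM against 6.18, 3.34 and 5.93 CPM. It fell 2.73-fold (log2 -1.45 ± 0.25, adjusted p = 0.00167), with atractylodin 2 again the lowest library. Ifit2 was near the floor, at 2.15, 2.83 and 1.54 CPM against 0.399, 0.522 and 0.752 CPM, and rested on 4 counts in vehicle 1 and 4, 5 and 9 counts in the atractylodin libraries. It fell by 1.92 ± 0.56 on the log2 scale (adjusted p = 0.0430), a call lost without any 1 of the 6 libraries (adjusted p = 0.0665 to 0.254), in DESeq2 (adjusted p = 0.0580) and in limma-voom (adjusted p = 0.0686). The calls of Ifit1 and Ifit3 were kept in all 6 fits that left out 1 library.

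The oligoadenylate synthetases make a short RNA messenger that switches on RNase L, and the OAS-like proteins are their relatives. Of 5 tested genes 1 fell, and the median log2 fold change was -0.50. Oasl1 (chromosome 5, 114923240 to 114937915), which restrains the translation of IRF7, was the most abundant. Its levels were 12.4, 12.0 and 11.8 CPM with vehicle and 4.68, 3.24 and 3.51 CPM with atractylodin. It fell 3.15-fold (log2 -1.65 ± 0.24, adjusted p = 0.000403), and the vehicle libraries differed among themselves by little.

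Its neighbour Oasl2 had 2.69, 6.27 and 1.70 CPM against 3.29, 1.67 and 1.59 CPM and did not pass (log2 -0.78 ± 0.49, adjusted p = 0.387). Oas1a, Oas1g and Oas2 lie with Oas3 in a cluster on the same chromosome. Oas1a, Oas1g and Oas2 stood at 0.162 to 1.94 CPM with vehicle and 0.627 to 2.79 CPM with atractylodin. In vehicle 1 all 3 were under its floor of 1.64 CPM, at 0.538 CPM for Oas1a and 1.08 CPM for Oas1g and Oas2. Oas2 was also under the floor of vehicle 3, at 0.162 CPM against 0.248 CPM. None of the 3 passed (adjusted p = 0.637 for Oas1a, 0.877 for Oas1g and 0.908 for Oas2). Oas1a shared 21.1% of the 50-base stretches at its 3' end with Oas1g, so their counts are uncertain.

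Antiviral restriction factors act on entry, replication or release of viruses, and 3 of 8 fell while all 8 estimates were lower (median log2 fold change -0.89). Ifitm3, a membrane protein that blocks the fusion of viruses in endosomes, was by far the most abundant of the 47 genes. It had 762, 613 and 707 CPM with vehicle and 403, 381 and 469 CPM with atractylodin, a fall of 1.66-fold (log2 -0.73 ± 0.11, adjusted p = 0.000452). Its lowest vehicle library was above its highest atractylodin library. Cmpk2, a mitochondrial nucleotide kinase, fell from 5.92, 5.67 and 5.01 CPM to 2.39, 1.46 and 1.67 CPM (log2 -1.56 ± 0.34, adjusted p = 0.00861).

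Rsad2, which encodes viperin and lies beside Cmpk2 on chromosome 12, had 32.3, 35.0 and 23.5 CPM with vehicle and 20.3, 6.47 and 13.8 CPM with atractylodin. The groups did not overlap, yet the atractylodin libraries spread widely and it did not pass (log2 -1.14 ± 0.43, adjusted p = 0.220). In limma-voom it passed (adjusted p = 0.0375), as it did without the filter on low counts (adjusted p = 0.0271). Leaving out atractylodin 1 or 2 also made it pass, at an adjusted p of 0.0448 and 0.0352. Samd9l, an inhibitor of translation in infected cells, had 16.1, 17.1 and 11 CPM against 8.27, 5.74 and 7.02 CPM. It fell 2.06-fold (log2 -1.04 ± 0.23, adjusted p = 0.00782), a call lost without vehicle 2 (adjusted p = 0.0750), and also after thinning (adjusted p = 0.2).

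The dynamin-like GTPase genes Mx1 and Mx2 were low and did not pass. Mx1 had 1.61, 1.72 and 3.48 CPM against 1.89, 0.313 and 0.668 CPM (log2 -1.34 ± 0.59, adjusted p = 0.191). Mx2, which GENCODE marks as a polymorphic pseudogene, had 8.07, 4.21 and 5.09 CPM against 3.09, 2.71 and 4.59 CPM (log2 -0.60 ± 0.33, adjusted p = 0.322). Both overlapped between groups, and Mx2 passed after thinning (log2 -1.72, adjusted p = 0.0358). Bst2, or tetherin, which holds budding virus at the cell surface, had 14.0, 12.9 and 17.5 CPM against 6.78, 9.19 and 13.2 CPM (log2 -0.61 ± 0.23, adjusted p = 0.130). It passed without the filter (adjusted p = 0.0488) and without atractylodin 3 (adjusted p = 0.0271). Trim30a, a TRIM-family ligase, had 21.5, 17.3 and 13.5 CPM against 9.27, 11.4 and 13.2 CPM (log2 -0.56 ± 0.20, adjusted p = 0.110), with the groups only just apart.

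**Figure D2:**
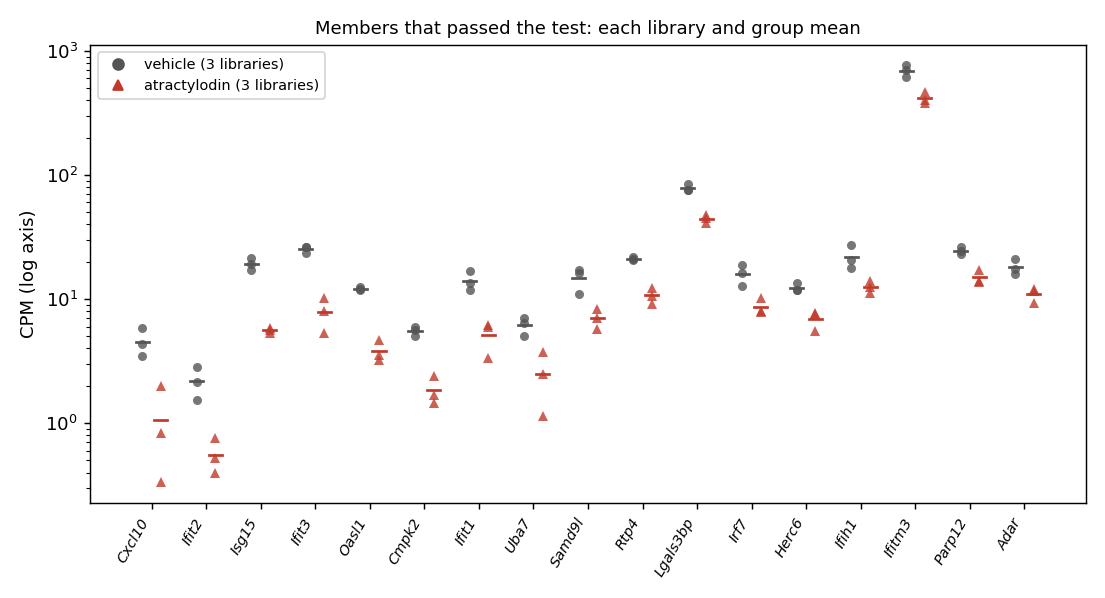
CPM in each of the 6 libraries (y axis, log scale) for the 17 interferon-stimulated genes that fell, with 3 vehicle and 3 atractylodin points per gene and a bar at each group mean. The vehicle points lie above the atractylodin points in all 17 genes, from Ifitm3 at 762 CPM in vehicle 1 to Ifit2 at a few CPM or less.

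Sensors of foreign nucleic acid and the RNA editing gene Adar had 7 lower estimates of 7 (median log2 fold change -0.48), and the sensor gene Ifih1 and Adar passed. Ifih1, which encodes the long double-stranded RNA sensor MDA5, had 27.5, 20.7 and 17.7 CPM with vehicle and 11.1, 12.5 and 13.9 CPM with atractylodin. It fell 1.67-fold (log2 -0.74 ± 0.18, adjusted p = 0.0182), a call lost without vehicle 1, vehicle 2 or atractylodin 1 (adjusted p = 0.0546 to 0.0805), and also after thinning (adjusted p = 0.103). Adar, which edits adenosine in double-stranded RNA and so hides the cell's own RNA from MDA5, had 21.0, 17.3 and 15.8 CPM against 11.6, 12.0 and 9.35 CPM. Its 1.6-fold fall (log2 -0.68 ± 0.18, adjusted p = 0.0314) was lost without any 1 of the vehicle libraries or atractylodin 3 (adjusted p = 0.0598 to 0.108), and also after thinning (adjusted p = 0.11).

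Ddx58, which encodes RIG-I, the sensor of RNA with a free triphosphate end, was the most abundant sensor. It had 31.2, 28.9 and 24.5 CPM against 20.9, 20.6 and 18.2 CPM, with every vehicle library above every atractylodin library. It missed the threshold (log2 -0.48 ± 0.15, adjusted p = 0.0568), passing with total counts scaling (adjusted p = 0.0259), without the filter (adjusted p = 0.0468) and after thinning (adjusted p = 0.0182). The helicase gene Ddx60 also had the groups apart, at 9.53 to 16.1 CPM with vehicle and 7.60 to 8.67 CPM with atractylodin (adjusted p = 0.136). Dhx58 (LGP2), Eif2ak2 (the kinase PKR) and Zbp1 (a sensor of Z-form nucleic acid) overlapped between groups, with log2 fold changes of -0.13 ± 0.24, -0.35 ± 0.25 and -0.34 ± 0.41.

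Of the 6 transcriptional regulators 1 fell, and their median log2 fold change was -0.33. Irf7, the factor that amplifies interferon production, had 18.8, 16.3 and 12.8 CPM with vehicle and 10.1, 7.83 and 8.02 CPM with atractylodin. It fell 1.79-fold (log2 -0.84 ± 0.20, adjusted p = 0.0168), a call lost without vehicle 1, vehicle 2, atractylodin 2 or atractylodin 3 (adjusted p = 0.0518 to 0.0784), and also after thinning (adjusted p = 0.219). Stat2 and Irf9 encode the parts of ISGF3 that are on this list. Stat2 had 30.7, 34.8 and 31.7 CPM against 28.5, 27.6 and 28.2 CPM, groups that lay apart by a small margin (log2 -0.22 ± 0.13, adjusted p = 0.348).

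Irf9 had 43.1, 42.8 and 47.9 CPM against 37.4, 34.7 and 43.8 CPM, with overlap (log2 -0.21 ± 0.12, adjusted p = 0.344). Irf1, a factor that type II interferon also induces, was the most abundant regulator. It had 60.3, 46.4 and 62.1 CPM against 29.3, 53.0 and 47.3 CPM and overlapped between groups, with atractylodin 1 the low library (log2 -0.37 ± 0.23, adjusted p = 0.416). The nuclear body gene Sp100 stood at 0.399 to 1.62 CPM in all libraries and did not pass (adjusted p = 0.579). Helz2, a helicase and transcriptional coactivator, had groups apart at 35.2 to 40.4 and 27.9 to 34.4 CPM (log2 -0.29 ± 0.13, adjusted p = 0.198).

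Parp9, Parp12 and Parp14 encode ADP-ribosyltransferase-family proteins, and Dtx3l is the ubiquitin ligase that partners PARP9. Of these 4 genes 1 fell (median log2 fold change -0.28). Parp12 had 24.2, 23.1 and 26.1 CPM with vehicle and 17.1, 14.1 and 13.8 CPM with atractylodin. It fell 1.64-fold (log2 -0.71 ± 0.16, adjusted p = 0.00878), a call lost without vehicle 3 (adjusted p = 0.0722), and also after thinning (adjusted p = 0.0580). Parp14 had 36.1, 33.8 and 29.1 CPM against 26.7, 22.7 and 26.5 CPM, groups apart without passing (log2 -0.36 ± 0.14, adjusted p = 0.131).

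Dtx3l, the most abundant of the 4, had 60.8, 67.9 and 69.5 CPM against 56.9, 60.8 and 67.0 CPM (log2 -0.12 ± 0.11, adjusted p = 0.582). Parp9 had 49.0, 50.5 and 51.6 CPM against 38.2, 44.1 and 50 CPM (log2 -0.20 ± 0.12, adjusted p = 0.372). Both pairs of groups overlapped. Parp9 and Dtx3l start beside each other on opposite strands of chromosome 16, and GENCODE has them overlap.

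Among 8 other induced genes 3 fell, with a median log2 fold change of -0.75. Cxcl10, a chemokine that draws T and NK cells, had 4.31, 5.84 and 3.48 CPM with vehicle and 1.99, 0.835 and 0.334 CPM with atractylodin. It fell 4.39-fold (log2 -2.14 ± 0.50, adjusted p = 0.0153) and was the steepest of the 17 falls, on 8 counts in vehicle 1 and 4 counts in atractylodin 3. The call was lost without vehicle 1, vehicle 2 or atractylodin 2 (adjusted p = 0.0504 to 0.104), with log2 fold changes of -2.99 to -1.68 over the 6 fits.

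Lgals3bp, a secreted glycoprotein that binds galectins (chromosome 11, 118392751 to 118402092, minus strand), had 75.9, 84.9 and 76.3 CPM against 47.2, 44.8 and 40.9 CPM. It fell 1.79-fold (log2 -0.84 ± 0.11, adjusted p = 0.000151), with tight groups far apart. Rtp4, a receptor transporter protein, had 21.0, 20.5 and 21.9 CPM against 12.3, 9.19 and 10.6 CPM. It fell 1.98-fold (log2 -0.98 ± 0.17, adjusted p = 0.00189). These calls were kept in all 6 fits that left out 1 library.

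Ifi27, a small mitochondrial and nuclear-envelope protein, was the most abundant of the 8, at 118, 133 and 122 CPM against 115, 101 and 106 CPM. Its groups lay just apart (log2 -0.22 ± 0.09, adjusted p = 0.190). Ifi47 had 19.9, 18.4 and 21.2 CPM against 9.07, 6.27 and 15.4 CPM, also apart, and missed the threshold (log2 -0.94 ± 0.27, adjusted p = 0.0625). It passed in DESeq2 (adjusted p = 0.0145), limma-voom (adjusted p = 0.0382), with total counts scaling (adjusted p = 0.0272), without the filter (adjusted p = 6.9e-05) and without atractylodin 3 (adjusted p = 0.000933). Ifi44 had groups apart as well, at 8.49 to 12.6 and 5.01 to 7.31 CPM (log2 -0.67 ± 0.24, adjusted p = 0.113). Xaf1, a partner of the apoptosis inhibitor XIAP, and Ifi35 overlapped between groups (log2 -0.26 ± 0.29 and 0.06 ± 0.19).

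Of the 17 calls 8 were kept in all 6 fits that left out 1 library and in every other alternative in which the gene was tested. They were Isg15, Ifit1, Ifit3, Oasl1, Cmpk2, Ifitm3, Rtp4 and Lgals3bp, which come from 5 of the 8 roles. The other 9 were lost in at least 1 such fit. The largest adjusted p of the 8 over all alternatives was 0.0416, for Cmpk2 (0.000971 for Isg15 and 0.00155 for Lgals3bp).

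The median level of the genes separated the libraries by group, while single genes such as Oas1a, Xaf1 and Sp100 were below their own mean in vehicle 1. That median over the 46 genes, each taken as log2 CPM minus its own mean over the 6 libraries, was 0.42, 0.34 and 0.26 in vehicle 1 to 3 and -0.23, -0.37 and -0.27 in atractylodin 1 to 3. The summed level of the 47 genes was 1827, 1680.3 and 1703 CPM with vehicle and 1182, 1105 and 1243 CPM with atractylodin, a sum in which Ifitm3 weighs most. The highest of the 6 libraries was vehicle 1 for 16 genes, vehicle 2 for 15 and vehicle 3 for 11. The lowest was atractylodin 2 for 21 genes, atractylodin 3 for 11 and atractylodin 1 for 9. Atractylodin 2 was thus the lowest library most often, and the median log2 fold change did not rest on it, at -0.60 without that library and -0.64 with it. Vehicle 1, the highest most often, was also the shallowest library, so its ranks for genes of a few CPM are the least precise. Without vehicle 1 the median log2 fold change was -0.62.

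**Figure D3:**
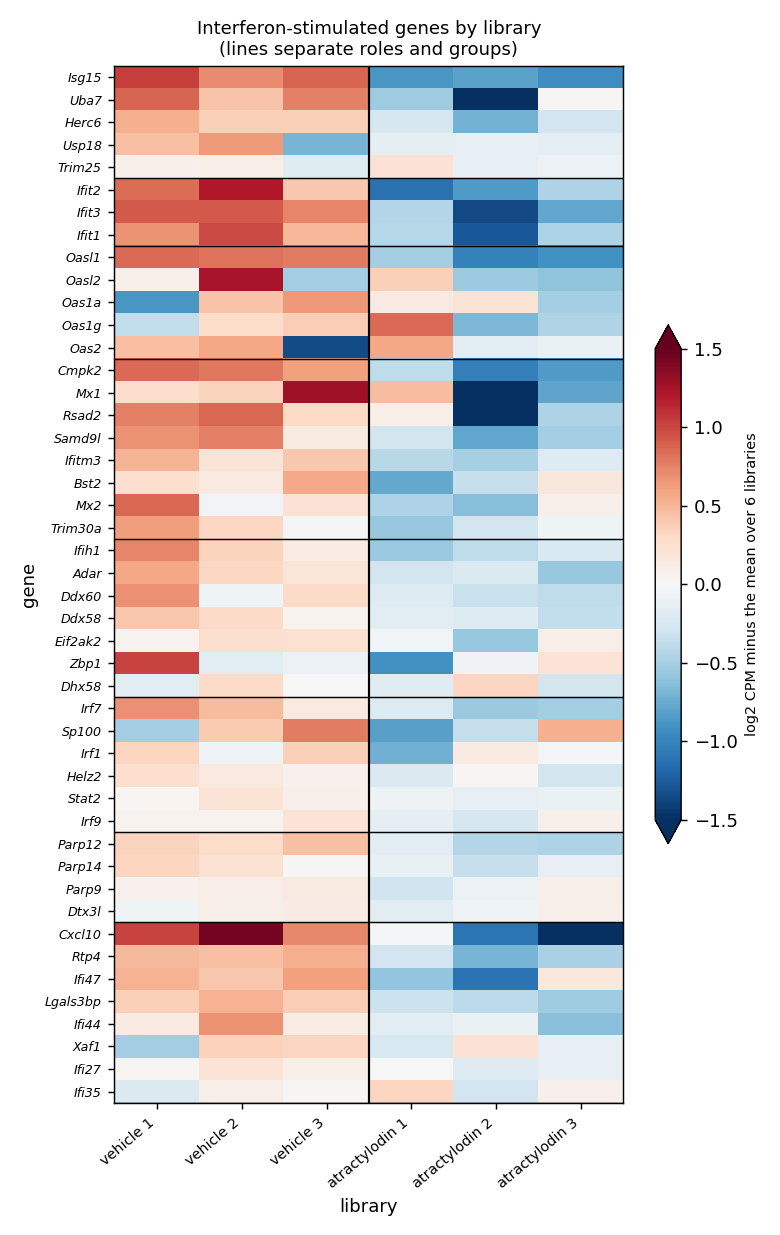
Each of the 46 tested genes (y axis, by role) in each of the 6 libraries (x axis), coloured by log2 CPM minus the gene's mean over the libraries. The colour scale ends at the values printed on its bar, and the 3 vehicle columns are mostly above the gene means, with medians of 0.42, 0.34 and 0.26, while the 3 atractylodin columns are mostly below.

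**Figure D4:**
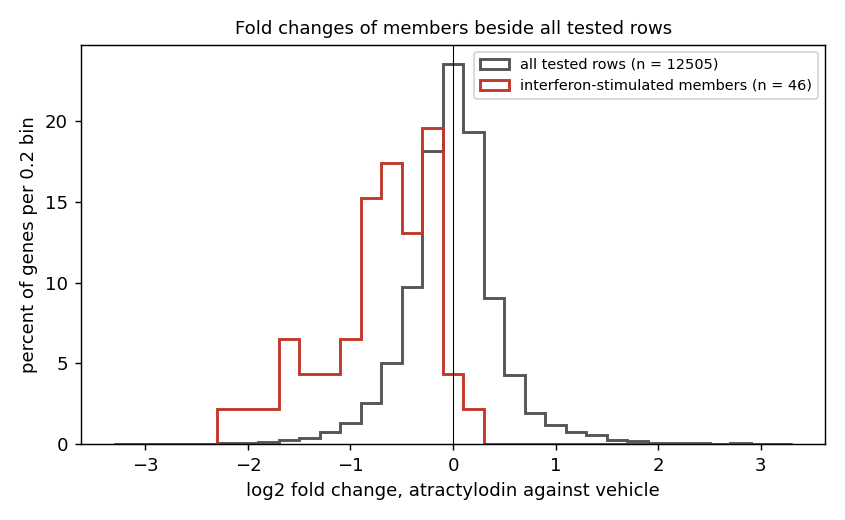
Distribution of log2 fold changes (x axis, atractylodin against vehicle) for all 12505 tested rows and for the 46 interferon-stimulated genes, as the percent of each set per bin (y axis). All rows centre on 0, and the 46 genes centre on -0.64 with 3 estimates above 0.

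Genes that make, sense and transmit interferon were read from a separate list of 48, of which 33 were tested. Of these 1 fell (3.03%, against 3.33% of all tested rows), 0 rose and 32 did not pass in edgeR. An unadjusted p under 0.05 was found for 5 (15.2%, against 21.5% of all tested rows), and DESeq2 and limma-voom also called 1 lower and 0 higher. Their median log2 fold change was -0.02. Ikbke, a kinase that activates IRF3 and IRF7, had 12.4, 8.93 and 11.5 CPM against 5.38, 5.95 and 6.60 CPM. It fell 1.78-fold (log2 -0.83 ± 0.23, adjusted p = 0.0331), a call lost without vehicle 1, vehicle 3, atractylodin 1 or atractylodin 2 (adjusted p = 0.0731 to 0.168), and also after thinning (adjusted p = 0.0858).

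None of 5 tested receptor genes passed in edgeR, DESeq2 or limma-voom, and 1 had an unadjusted p under 0.05. Ifnar1 had 15.1, 21.2 and 22.3 CPM against 18.8, 22.7 and 19.0 CPM (log2 -0.02 ± 0.16, adjusted p = 0.962). Ifnar2, the most abundant receptor gene, had 89.9, 97.4 and 98.0 CPM against 113, 128 and 102 CPM, with atractylodin above vehicle in all libraries (log2 0.26 ± 0.10, adjusted p = 0.142).

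Jak1 was at 183 to 202 CPM with vehicle and 176 to 206 CPM with atractylodin (log2 -0.03 ± 0.09, adjusted p = 0.900). Tyk2 was at 9.94 to 10.5 and 7 to 10.4 CPM (log2 -0.28 ± 0.22, adjusted p = 0.502). Stat3, the most abundant of the kinase and STAT genes listed, spread widely within both groups, from 201 to 349 and from 246 to 521 CPM (adjusted p = 0.742). Mavs, the adaptor of RIG-I and MDA5, had 47.1 to 56.0 CPM against 48.3 to 69.2 CPM (adjusted p = 0.579), and Irf3 had 28.1 to 31.5 CPM against 25.9 to 33.3 CPM (adjusted p = 0.965). Irf2 (adjusted p = 0.836) and the phosphatase gene Ptpn11 (log2 0.29 ± 0.11, adjusted p = 0.131), the most abundant genes of their roles, did not pass either.

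The interferon genes themselves were at or near 0. Ifnb1 had 0 counts in all 6 libraries, where a count of 0 allows up to 1.64 CPM in vehicle 1 and 0.239 to 0.304 CPM in the others. Ifng had 1 count, in vehicle 2. These limits cover counting error only.

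**Figure D5:**
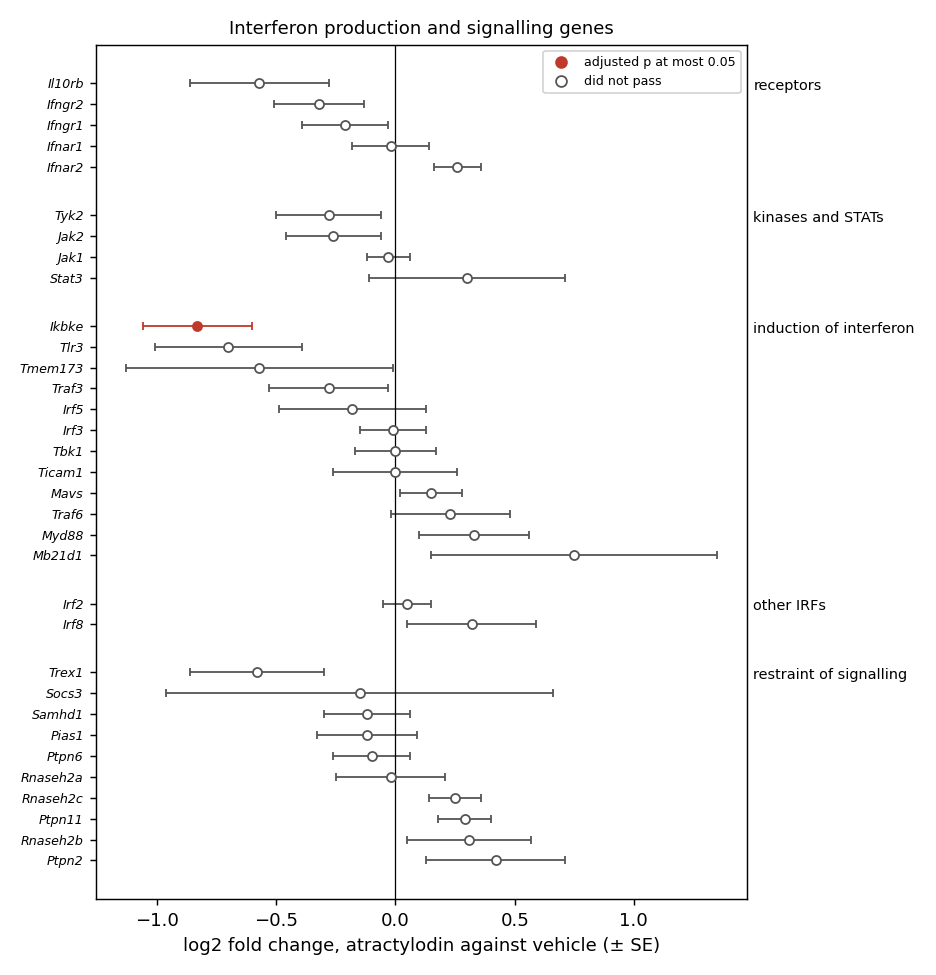
Log2 fold change with bars of 1 SE (x axis, atractylodin against vehicle) of the 33 tested genes of interferon production and signalling, grouped by role. The filled point marks Ikbke, below 0, and the other 32 did not pass.

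A second list held 42 further interferon-induced genes, of which 36 were tested. Of these 5 fell (13.9%, against 3.33% of all tested rows), 0 rose, and the median log2 fold change was -0.38. Estimates were lower for 31 of the 36, where 50.2% of all tested rows had such an estimate. DESeq2 called 3 of the list lower and limma-voom 4, each with 0 higher. Apol9a, an apolipoprotein L relative, had 27.5, 21.7 and 22.0 CPM against 11.1, 12.8 and 15.1 CPM (log2 -0.82 ± 0.17, adjusted p = 0.00619), kept in all 6 fits that left out 1 library. Trim14, an adaptor in RNA sensing, had 39.3, 45.0 and 52.7 CPM against 11.5, 25.1 and 16.7 CPM (log2 -1.39 ± 0.26, adjusted p = 0.0210). Ifit3b had 3.23, 4.12 and 3.40 CPM against 1.59, 1.04 and 1.5 CPM (log2 -1.39 ± 0.40, adjusted p = 0.0414).

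The nuclear body gene Pml (log2 -0.61 ± 0.18, adjusted p = 0.0438) and the RNA helicase gene Znfx1 (log2 -0.45 ± 0.11, adjusted p = 0.0153) also fell. Leaving out 1 library removed the calls of Ifit3b (any of the 6), Pml (any but atractylodin 2), Trim14 (any vehicle library or atractylodin 3) and Znfx1 (vehicle 1, vehicle 3, atractylodin 1 or atractylodin 2), at adjusted p of 0.0501 to 0.202. Pml was also lost in DESeq2 (adjusted p = 0.0695) and limma-voom (adjusted p = 0.0560). Ifit3b was also lost in DESeq2 (adjusted p = 0.0558), and Znfx1 after thinning (adjusted p = 0.0804). The list had 1 to 5 falls over those fits. Its most abundant gene, Gm4951, had 131, 133 and 146 CPM against 136, 144 and 169.9 CPM (log2 0.13 ± 0.10, adjusted p = 0.5). An ISRE core was in the promoters of 19 of 31 of these genes (61.3%), against 3.99% of 27025 genes. Some genes have several promoters, and per promoter it was in 47.9% of 48, against 3.44% of 32851. The GAS element was in 3 of the 31 (9.68%), against 9.55% of all genes.

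Whole liver holds many cell types, and in bulk RNA fewer cells of a type and less RNA per cell cannot be told apart. Hepatocyte markers summed to 79604 to 86818 CPM with vehicle and 75627 to 83168 CPM with atractylodin. Macrophage markers (14 rows) summed to 369 to 531 and 302 to 451 CPM, ranges that overlapped. Of 12 tested, 0 passed in edgeR, 1 in DESeq2 (lower, where 3.05% of all rows were) and 0 in limma-voom. An unadjusted p under 0.05 in edgeR was found for 4 of them, against 21.5% of all tested rows. Estimates were lower for 10 of the 12, with a median log2 fold change of -0.27. Of these, Clec4f, a Kupffer cell lectin, had 38.8, 39.1 and 40 CPM against 35.9, 30.9 and 33.5 CPM, with the groups apart (log2 -0.24 ± 0.12, adjusted p = 0.272). Cd5l, the most abundant, overlapped between groups (adjusted p = 0.577). Csf1r (log2 -0.35 ± 0.13, adjusted p = 0.112) and Cd68 (log2 -0.79 ± 0.33, adjusted p = 0.205) overlapped too, and C1qa had the groups apart (log2 -0.28 ± 0.13, adjusted p = 0.203). These 3 were chosen after their values were seen. The 2 higher estimates were those of Marco (log2 1.26 ± 0.84, adjusted p = 0.489) and Timd4 (log2 0.33 ± 0.40, adjusted p = 0.69), both with overlap between groups. The lowest estimate, of Gpnmb (log2 -2.65 ± 1.07, adjusted p = 0.212), also came with overlap, on 79 counts in vehicle 2 and 2 to 12 in the other libraries.

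Dendritic cell markers summed to 8.08 to 11.7 and 8.77 to 13.3 CPM, T and NK cell markers to 1.08 to 4.20 and 1.89 to 5.85 CPM with Ncr1 at 0, and B cell markers to 1.37 to 3.23 and 0.399 to 1.67 CPM. Neutrophil markers summed to 5.58 to 8.07 CPM with vehicle and 1.25 to 23.0 CPM with atractylodin, the highest in atractylodin 3. Of 9 endothelial markers 3 fell and 2 rose in edgeR, where 3.33% of all tested rows fell and 3.92% rose. The falls were Stab2 (log2 -0.60, adjusted p = 0.0283), Ptprb (log2 -0.32, adjusted p = 0.0437) and Fcgr2b (log2 -0.64, adjusted p = 0.0254). Lyve1 (log2 0.71, adjusted p = 0.0414) and Bmp2 (log2 0.42, adjusted p = 0.0495) rose. DESeq2 and limma-voom each called 2 of the 9 lower and 1 higher, where 3.05% and 3.09% of all rows were lower. The 9 endothelial markers summed to 417 to 430.1 CPM with vehicle and 393 to 427 CPM with atractylodin. The part of these cell types in the lower levels of the interferon-stimulated genes was not tested.

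Some of the 47 genes overlap another annotated gene on GRCm38 (GENCODE M21), and the strand setting of the counting is not given in the sources used here. Of the 17 genes that fell, 3 overlap a gene on the same strand (Uba7, Herc6 and Rtp4) and 6 a gene on the opposite strand (Herc6, Oasl1, Adar, Irf7, Rtp4 and Cxcl10). The partners with a tested row include Masp1 for Rtp4 (log2 -0.47 ± 0.42, adjusted p = 0.568), Art3 for Cxcl10 (log2 0.00 ± 0.58, adjusted p = 0.999) and Phrf1 for Irf7 (log2 0.30 ± 0.15, adjusted p = 0.276). None of these 3 passed. No annotated gene overlapped Isg15, Ifit1, Ifit2, Ifit3, Cmpk2, Ifitm3, Samd9l, Ifih1, Parp12 or Lgals3bp.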

How the data were processed

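The authors deposited raw counts per gene symbol for each of 6 liver libraries, without normalization. Per the labels' protocols, 500 ng of Trizol-extracted RNA went into each Lexogen QuantSeq library. Bowtie2, bedtools and the build mm10 were used, per the submitters' processing notes. Versions, gene annotation, strand setting and the handling of reads that match several genes are not given in the sources used here.

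The 47 genes and the other lists were chosen with earlier results of these data known. Results for 2 genes of interferon signalling are not reported here. Counts were filtered (filterByExpr), scaled by TMM and tested with edgeR 4.0.16 under R 4.3.3 (robust quasi-likelihood F-test, no covariates) over 12505 of 23282 rows, with Benjamini-Hochberg adjustment at 0.05. The SE of a log2 fold change was taken as its size over the root of F. Of the 47 genes, every one that passed and the most abundant of each role was given with its 6 values. Pairs of libraries differed beyond counting noise (chi-square per degree of freedom of at least 2.75). Alternatives were DESeq2 1.42.0, limma-voom 3.58.1, RLE and total counts scaling, no filter, a mean CPM of 5, the replicate number as a block, thinning, and leaving out each library. The labels give no batch. Gene positions are from GENCODE M21 and promoters from RefSeq.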

Additional observations from a re-analysis of the deposited data

How the results depend on the processing

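Among the 17 genes that fell, 231 values under the alternatives had 189 on the same side of the threshold, 42 no longer past it and 0 reversed. Among the genes that did not pass, 371 of 387 values stayed, 16 passed and 0 reversed past the threshold. The number of the 46 genes that fell was 17 with DESeq2, limma-voom and RLE scaling, 19 with total counts scaling, 21 without the filter and 13 with a mean CPM of at least 5 (33 tested). Over all rows these fits called 3.05%, 3.09%, 3.33%, 5.65%, 3.24% and 4.33% lower, in that order. Thinning all libraries to the shallowest gave 9 genes of the list, 0 of the pathway list (1 otherwise), and 247 lower and 302 higher over all rows (416 and 490 otherwise). Fewer genes were tested after thinning, 8939. Total counts scaling gave 707 lower and 312 higher over all rows and a median of -0.73 for the 46 genes. Further interferon-induced genes that fell numbered 3 with DESeq2 and 4 with limma-voom (5 in edgeR).

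The labels do not state that replicate numbers pair the libraries. Deviations of same-numbered libraries correlated at -0.03, -0.09 and 0.02, which does not settle whether they were paired. With the replicate number as a block 17 of the 46 genes fell, 16 of them the same, and 3 of the further interferon-induced genes (2.99% of all rows). Ifit2 (adjusted p = 0.0961), Pml (adjusted p = 0.0570) and Ifit3b (adjusted p = 0.0743) no longer passed with the block, and Ifi47 did (adjusted p = 0.0104).

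Leaving out 1 library, with 1 group of 2, gave 9 to 16 falls among the 46 genes, 0 to 1 in the pathway list, 1 to 5 among the further interferon-induced genes, and 215 to 362 lower and 236 to 400 higher over all rows. No gene of the 46 rose under any alternative listed. Depth limits genes of a few CPM most, since 3 counts equal 1.64 CPM in vehicle 1, which covers counting error only.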
